A study of Mus musculus with 9 samples.

Results

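The ATF4 program is the set of genes that cells switch on when amino acids run short or proteins misfold. Stress kinases phosphorylate the initiation factor eIF2α, translation in general then slows, and the transcription factor ATF4 is translated more because its mRNA carries upstream open reading frames. ATF4 binds DNA together with C/EBP proteins and raises genes for amino acid synthesis, amino acid uptake and tRNA charging, together with effectors that restrain growth or end the response. In macrophages the same genes set how much cysteine, serine and glutamine a stimulated cell can take up or make. Here 38 such genes were followed by their symbols, out of 16921 genes in the authors' deposited table, and grouped by role. The grouping has 6 transcription factors and regulators, 6 stress effectors, 5 genes of serine, glycine and one-carbon synthesis, 3 of asparagine and proline synthesis, 6 amino acid transporters, and 12 for aminoacyl-tRNA synthetases and tRNA export.

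The libraries came from RiboSeq, in which nuclease leaves the stretch of mRNA that a ribosome covers and these fragments are counted per gene. The cells of all 9 libraries were mouse bone marrow-derived macrophages (BMDMs) that lack tristetraprolin (TTP, gene Zfp36), an RNA-binding protein that sends AU-rich mRNAs to decay. They had been immortalized with human c-myc and mutant H-Ras, selected for CD11b and F4/80, and transduced with a doxycycline-inducible retroviral vector. The vector coded for GFP alone (GFP-only), for GFP fused to wild-type TTP (GFP–TTP) or for GFP fused to TTP with the substitutions S52A and S178A (GFP–TTP-AA), which the kinase MK2 can no longer phosphorylate. All 3 conditions received doxycycline (1 μg/ml) for 6 h and lipopolysaccharide (LPS, 1 μg/ml) for 1 h, in medium that contained glutamine and non-essential amino acids. Each condition was a line transduced on its own and had 3 libraries, numbered 1, 2 and 3, so that line and construct cannot be told apart. No label says whether the 3 libraries of a condition came from separate cultures, so the errors may measure technical spread.

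The deposited normalized counts proved to be values fitted by the authors' model and not observed counts. They equal a condition term plus a replicate-number term per gene on the log2 scale, so the 3 libraries of a condition show no scatter of their own, and each error below is the standard error (SE) that the authors' model gave. A level is the geometric mean over the 3 libraries of a condition of the fitted value over its size factor. Fold changes are log2 ratios of levels, which the model has shrunken toward 0, more so for genes with few footprints. A gene changed where the two-sided Wald test (log2 fold change over SE) gave an adjusted p under 0.05 after Benjamini-Hochberg correction over all genes with a mean level of at least 10. All 38 genes passed this filter, with SEs between 0.13 and 0.25.

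Zfp36 itself, whose coding sequence the constructs carry, had fitted values of 436 to 499.7 in the GFP-only libraries, 880.2 to 1009 with GFP–TTP and 1459 to 1672 with GFP–TTP-AA, so footprints on this gene were also assigned in the TTP-deficient control. Of 10 macrophage markers 9 were in the table and 8 could be tested. The summed level of the 9 was 96093 with GFP-only, 76082 with GFP–TTP and 109350.4 with the mutant. Emr1, Lyz2, Fcgr1 and Spi1 were higher in GFP–TTP-AA than in GFP–TTP, Emr1, Lyz2 and Fcgr1 were lower in GFP–TTP than in GFP-only, and Emr1 was higher in the mutant than in GFP-only. Markers of lymphocytes, fibroblasts, epithelium, endothelium and dendritic cells summed to at most 4.35 per list and condition. Of the neutrophil markers only S100a8 was above the filter, at 27.0, 25.6 and 55.9 in the same order, higher in the mutant than in GFP-only (adjusted p = 0.00232) and GFP–TTP (adjusted p = 0.000237). Whether these shifts play a part in the results below was not tested. In bulk lysates, a change in the number of cells of one kind and a change per cell cannot be told apart, and footprint counts alone do not separate mRNA abundance from translation per mRNA.

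Footprint density differed widely among the genes and within each role. To compare genes, the mean level over the 9 libraries was divided by coding length and is given per 100 codons. Nars, the asparaginyl-tRNA synthetase, had the highest density (688), followed by Psat1 (632), which makes phosphoserine, and Gdf15 (575), a secreted stress cytokine. Atf4 itself ranked among the denser genes with 399.8, although footprints on its upstream reading frames add to this value and their length does not. The median density was 234 for serine, glycine and one-carbon synthesis, 201 for synthetases and tRNA export and 197 for transporters, against 79.8 for asparagine and proline synthesis, 37.6 for the transcription factors and regulators and 33.5 for the stress effectors. At the low end stood the pseudokinase gene Trib3 (8.17), Chac1 (6.75), which degrades glutathione, and Vldlr (1.43), a lipoprotein receptor.

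**Figure D1:**
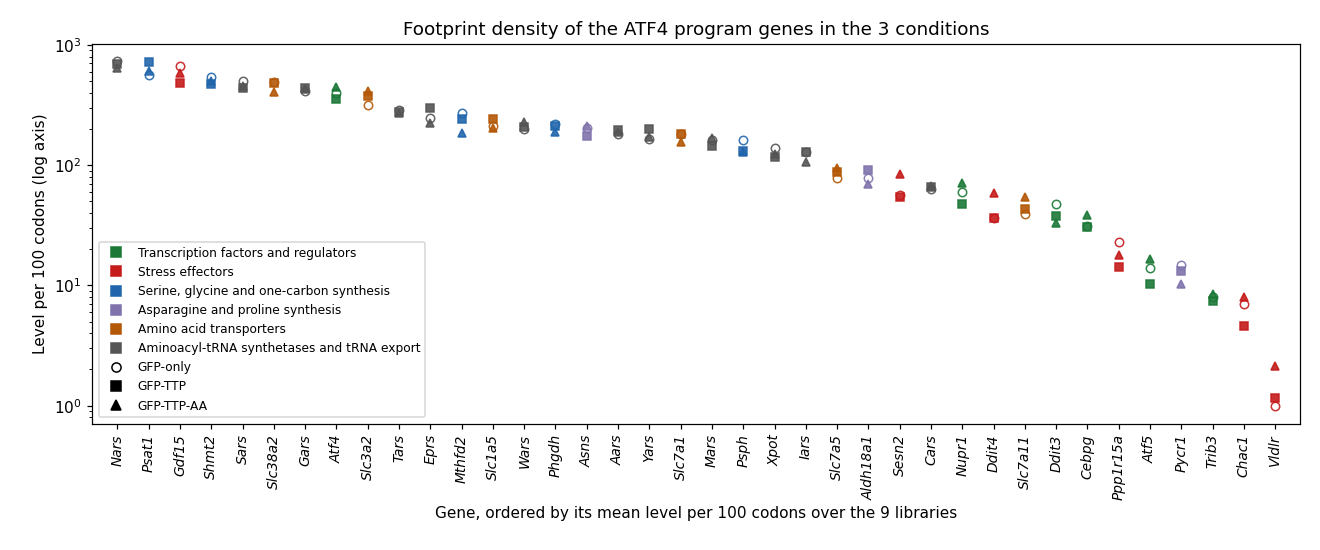
Level per 100 codons (log axis) of each of the 38 genes in GFP-only (open circles), GFP–TTP (squares) and GFP–TTP-AA (triangles), ordered by the mean over the 9 libraries and coloured by role. Densities span from 688 for Nars to 1.43 for Vldlr, and for most genes the 3 symbols nearly coincide.

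The first comparison asked whether wild-type TTP, when given back to the deficient cells, altered the program. With GFP–TTP against GFP-only, 0 of 38 genes passed the threshold, where 2.09% of all tested genes did and 1.29% were lower (Wald test, Benjamini-Hochberg). At an unadjusted p under 0.05 there were 4 of 38, against 11.3% of all tested genes. Over the 38 genes the log2 fold changes had a median of -0.06, against 0.00 over all tested genes, and 15 were above 0. Closest to the threshold was Ppp1r15a, the eIF2α phosphatase subunit that ends the stress response, with levels of 150.2 in GFP-only and 93.5 in GFP–TTP (log2 fold change -0.68 ± 0.21, adjusted p = 0.0502). Chac1 (-0.62 ± 0.23, adjusted p = 0.197) and Gdf15 (-0.48 ± 0.19, adjusted p = 0.241) also lay below 0 and Psat1 above it (0.37 ± 0.17, adjusted p = 0.342), none past the threshold.

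The other comparisons set the mutant against each of the other lines. Against GFP-only, 2 of 38 genes were higher with GFP–TTP-AA, Sesn2 and Vldlr, and 0 were lower, where 3.03% of all tested genes passed, 1.76% higher and 1.27% lower. Against GFP–TTP, 4 were higher, namely Sesn2, Vldlr, Ddit4 and Chac1, and 1 was lower, Eprs, where 10.2% of all tested genes passed, 5.66% higher and 4.58% lower. At an unadjusted p under 0.05 there were 9 of 38 against GFP-only (14.2% of all tested genes) and 11 of 38 against GFP–TTP (22.1%). Medians over the 38 were 0.03 against GFP-only and 0.06 against GFP–TTP, beside 0.01 over all tested genes in both. The 3 comparisons share libraries, so a gene that stands out in 2 of them was not measured independently in each. All 4 genes that rose belong to the 6 stress effectors, and the other 33 genes passed the threshold in no comparison. The genes and lists were chosen with earlier results of these data known, so this grouping tests nothing about the role. Against GFP–TTP the calls made up 13.2% of the 38 genes, near the 10.2% of all tested genes. On GRCm38 the 5 genes lie at chr4:132492032-132510501 (Sesn2, minus strand), chr19:27216484-27254231 (Vldlr, plus strand), chr10:59949669-59951834 (Ddit4, minus strand), chr2:119351229-119354381 (Chac1, plus strand) and chr1:185363044-185428360 (Eprs, plus strand).

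**Figure D2:**
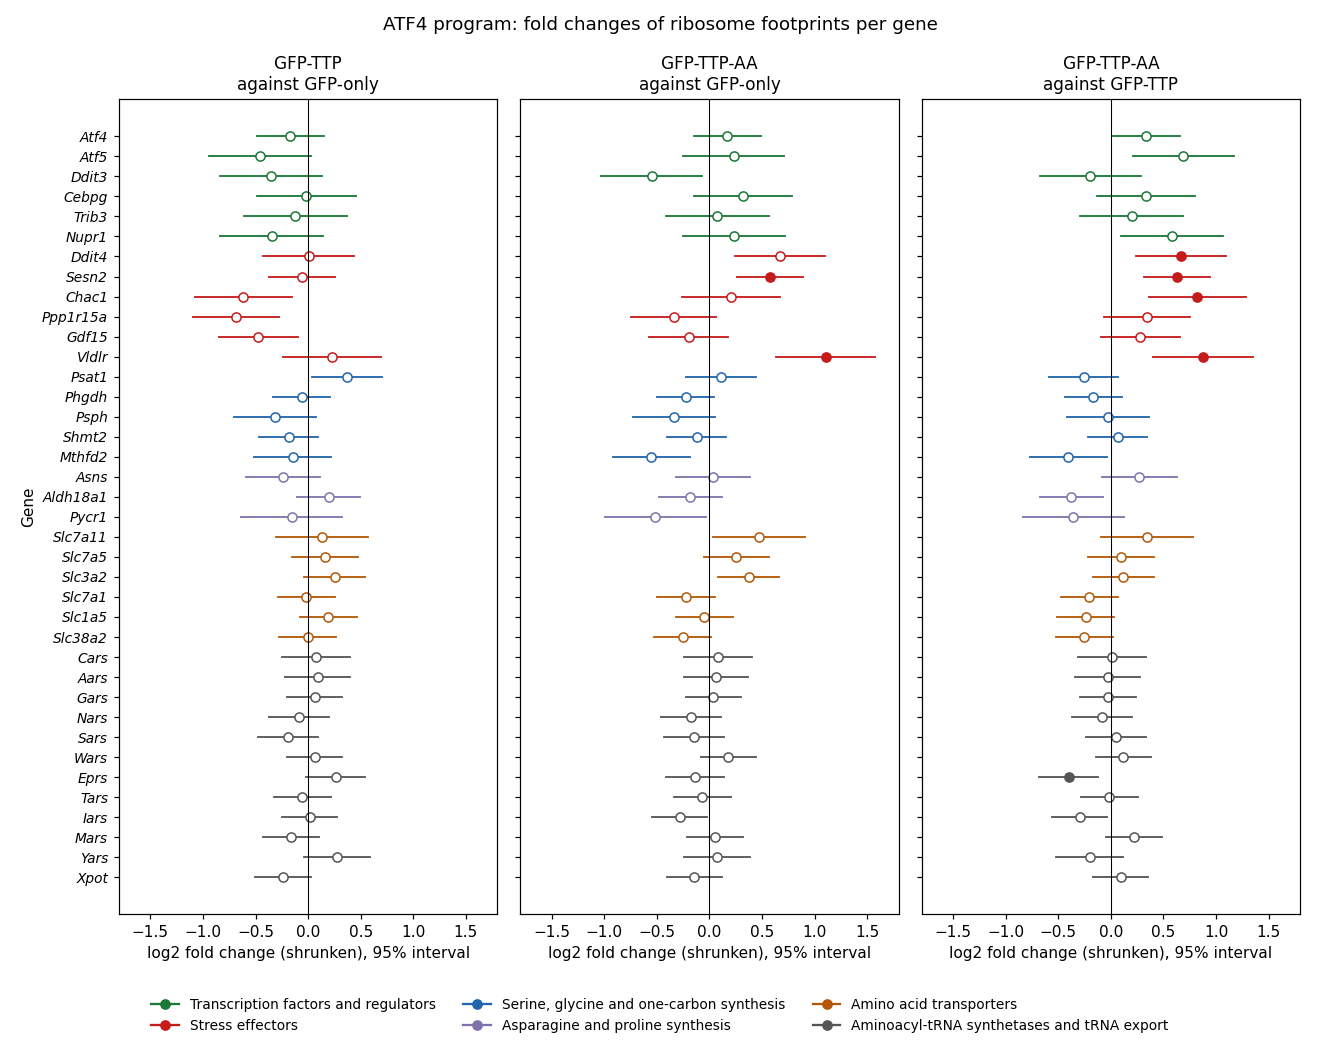
Log2 fold change with its 95% interval for the 38 genes, one panel per comparison, coloured by role, with filled circles where the adjusted p was under 0.05. The filled circles are Sesn2 and Vldlr in the middle panel and Ddit4, Sesn2, Chac1, Vldlr and Eprs in the right panel, while no circle is filled in the left panel.

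Atf4 was not called in any comparison. Its fitted values were 1354, 1265 and 1549.5 in GFP-only libraries 1, 2 and 3. They were 1205, 1125 and 1379 with GFP–TTP, and 1520.2, 1419.6 and 1739 with GFP–TTP-AA. The GFP-only range overlaps both others, while all GFP–TTP values lie below all mutant values. Here and below, the order and overlap of libraries follow from the fitted condition and replicate-number terms and are no measure of scatter. From GFP–TTP to the mutant the log2 difference was 0.34 ± 0.16 (95% interval 0.02 to 0.65, adjusted p = 0.196). Footprints on upstream reading frames and on the coding sequence are summed in a gene count, so the values do not say how much ATF4 protein was made, and the same holds for Atf5, Ddit3 and Ppp1r15a.

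Among the other regulators, Ddit3 (CHOP, a partner of ATF4 that promotes cell death) had its lowest level with the mutant. Its fitted values were 74.1, 118 and 59.5 in GFP-only, 58.0, 92.4 and 46.6 with GFP–TTP, and 50.6, 80.6 and 40.7 with GFP–TTP-AA. Library 2 was highest in every condition and the ranges overlap widely. Against GFP-only the mutant gave -0.55 ± 0.25 (95% interval -1.03 to -0.07, adjusted p = 0.247), so Ddit3 did not pass. Ddit3 shares 68 nt at its end with Mars on the opposite strand, and the sources used here do not state whether counting used strand. On opposite strands, the span of Atf5 likewise overlaps Nup62 by 571 nt and Il4i1 by 272 nt. That of Ppp1r15a overlaps Tulp2 by 717 nt. Aars, Shmt2, Slc7a5, Wars and Yars also overlap another coding gene. Atf5, a relative of Atf4 with the same kind of upstream frames, came nearest to a call, with a level of 39.6 in GFP-only, 28.8 with GFP–TTP and 46.5 with the mutant (for the mutant against wild type 0.69 ± 0.25, adjusted p = 0.0502). Nupr1, a small chromatin-bound stress protein, gave 0.58 ± 0.25 (adjusted p = 0.123) in that comparison. Cebpg, a dimer partner of ATF4, gave 0.33 ± 0.24 (adjusted p = 0.439). Trib3, a target of ATF4 and CHOP that restrains them, gave 0.20 ± 0.25 (adjusted p = 0.705). Thus 5 of 6 regulators were above 0 in the mutant against GFP–TTP, where 5125 of 10103 tested genes were. All 6 were below 0 in GFP–TTP against GFP-only, where 4934 of 9938 were. Both counts use the same GFP–TTP levels, so they are not independent. In either comparison 0 of 6 passed the threshold (10.2% and 2.09% of all tested genes). At an unadjusted p under 0.05 there were 3 and 0 of 6, beside 22.1% and 11.3%.

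The genes of the program that passed as higher were all grouped here as stress effectors. Sesn2 (sestrin 2), a leucine sensor that restrains mTORC1, had fitted values of 289, 336 and 208 in GFP-only libraries 1, 2 and 3. They were 278, 323 and 200.2 with GFP–TTP and 431, 499.8 and 310.0 with GFP–TTP-AA. Within each replicate number the mutant was highest, which the additive fit imposes, although library 3 of the mutant lies below library 2 of the other conditions. Sesn2 rose by 0.57 ± 0.16 against GFP-only (1.49-fold, adjusted p = 0.0157) and by 0.63 ± 0.16 against GFP–TTP (1.55-fold, adjusted p = 0.00205).

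Ddit4 (REDD1), another brake on mTORC1, had fitted values of 121, 114 and 42.2 in GFP-only. They were 121, 115 and 42.4 with GFP–TTP, and 193, 182 and 67.4 with GFP–TTP-AA. Library 3 was low in every condition, and the mutant's library 3 lies below libraries 1 and 2 of the others. Ddit4 rose by 0.67 ± 0.22 against GFP–TTP (1.59-fold, adjusted p = 0.0267). Against GFP-only the same difference of 0.67 ± 0.22 missed the threshold (adjusted p = 0.0589). Chromosome 10, which carries Ddit4, had a median log2 fold change of 0.17 over its 482 tested genes in GFP–TTP-AA against GFP–TTP. With this median taken off, the difference was 0.50 and no longer passed (adjusted p = 0.151).

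Chac1 had fitted values of 13.5, 12.8 and 22.0 in GFP-only. They were 8.78, 8.38 and 14.3 with GFP–TTP, and 15.5, 14.8 and 25.4 with GFP–TTP-AA. Library 3 was highest throughout, and libraries 1 and 2 of GFP–TTP lie below all others. Chac1 rose by 0.82 ± 0.24 from GFP–TTP to GFP–TTP-AA (1.77-fold, adjusted p = 0.00832), while its level in GFP–TTP-AA (18.0) was close to that in GFP-only (15.6; 0.21 ± 0.24, 95% interval -0.26 to 0.67).

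Vldlr had the fewest footprints per length in the program. Its fitted values were 8.43, 9.67 and 7.90 in GFP-only. They were 9.88, 11.3 and 9.26 with GFP–TTP, and 18.1, 20.8 and 17.0 with GFP–TTP-AA. The fitted mutant values lie above the other 6 because both condition differences exceed the fitted range over replicate numbers, 0.29 on the log2 scale. Vldlr rose by 1.11 ± 0.24 against GFP-only (2.15-fold, adjusted p = 0.000657) and by 0.88 ± 0.24 against GFP–TTP (1.84-fold, adjusted p = 0.00582). Its level in GFP-only (8.64) is under the filter of 10, which the mean over all libraries (12.5) passed through the mutant, so its call without any filter is given with the limits.

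The other effectors stayed under the threshold. Ppp1r15a and Gdf15 gave 0.34 ± 0.21 (adjusted p = 0.341) and 0.28 ± 0.19 (adjusted p = 0.414) in GFP–TTP-AA against GFP–TTP. Both had their lowest level with GFP–TTP and their highest in GFP-only, so that the mutant lay between.

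**Figure D3:**
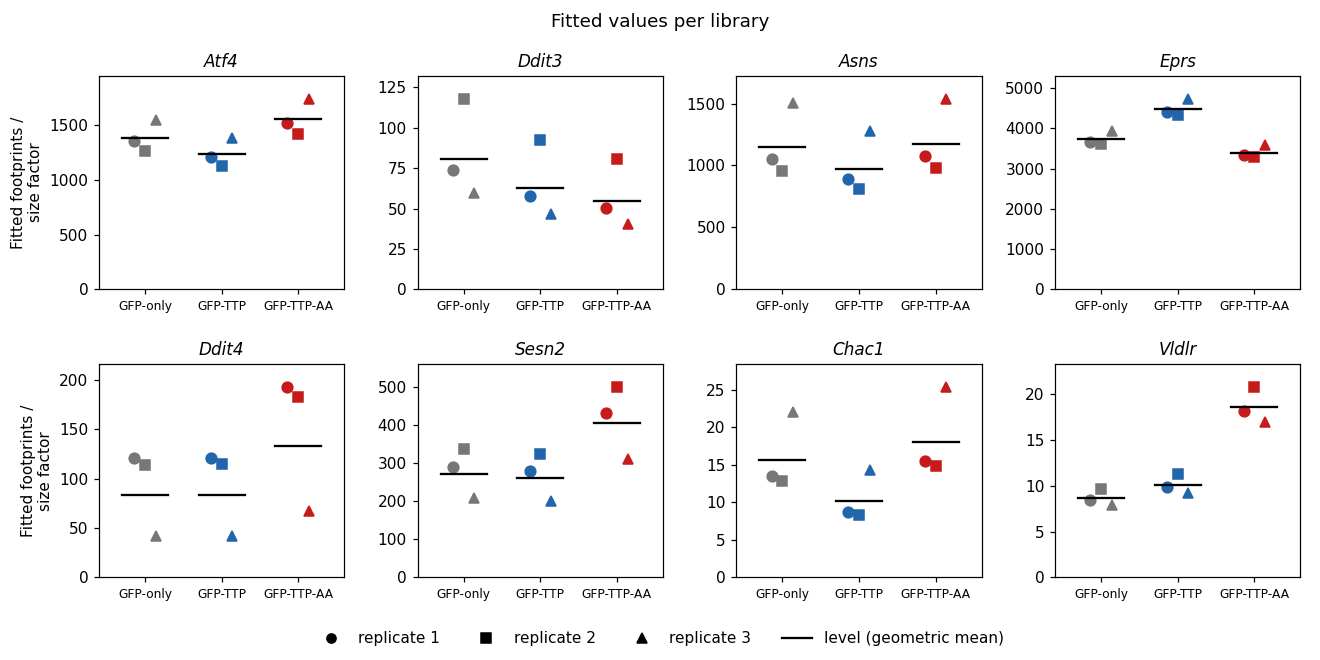
Fitted footprints divided by the size factor (y axis from 0) in the 9 libraries for Atf4, Ddit3, Asns, Eprs, Ddit4, Sesn2, Chac1 and Vldlr, with circles, squares and triangles for replicates 1, 2 and 3 and a line at the level of each condition. The fitted mutant values of Vldlr (17.0 to 20.8) lie above the rest. For Ddit4 replicate 3 is low in all 3 conditions, since the fit shares replicate shifts between conditions.

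Because TTP acts on AU-rich 3′UTRs, the annotated 3′UTRs were searched for TATTTAT, the core of its preferred site, on the transcribed strand and with overlapping matches counted. It occurred in 7 of 38 genes (18.4%), against 27.4% of 9971 tested genes with a coding transcript. The 7 were Chac1, Ppp1r15a, Gdf15, Vldlr, Mthfd2, Slc38a2 and Tars, so that 4 of the 6 stress effectors hold it, while Sesn2, Ddit4 and Eprs do not. The sites of the effectors are shown because they include genes that rose and genes closest to a call with wild-type TTP. Each is written 5′ to 3′ with the motif in capitals (GRCm38).
Chac1, chr2:119353774-119353800, plus strand: cttgaaccttTATTTATtgcaccatgt
Vldlr, chr19:27251432-27251458, plus strand: ctaaaaaggaTATTTATaattaaaaca
Ppp1r15a, chr7:45522954-45522980, minus strand: tcctattattTATTTATttatttattt
Gdf15, chr8:70629483-70629509, minus strand: tcaaggatgcTATTTATatttgtattt
Gdf15, chr8:70629471-70629497, minus strand: tttatatttgTATTTATtaatattatt
Gdf15, chr8:70629419-70629445, minus strand: atggattgtgTATTTATttaaaactct
The Ppp1r15a window is the second of 4 overlapping matches that begin 19 nt after the stop codon, Gdf15 has 3 matches 44, 56 and 108 nt after it, and the single matches of Chac1 and Vldlr lie 194 and 2302 nt after it. Of these genes Vldlr was higher with the mutant than in GFP-only and GFP–TTP. Chac1 was higher with the mutant than in GFP–TTP only, and against GFP-only it gave 0.21 ± 0.24. Ppp1r15a and Gdf15 did not pass the test.

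Promoters were searched on both strands for TGATGNAAN, the composite C/EBP and ATF element to which ATF4 binds, in the RefSeq windows of GRCm38 from 250 bases before to 50 after the start of each gene. It was found in 11 of the 33 genes with a window (33.3%), against 4.04% of 27025 promoters of all annotated genes, tested or not. The genes were chosen as members of the ATF4 program, so this share is no result of these libraries. The genes were Trib3, Nupr1, Chac1, Asns, Pycr1, Slc7a11, Aars, Gars, Tars, Iars and Yars. Windows were matched for neither Slc7a5, Slc1a5, Cars, Nars nor Wars. Elements from several roles are printed, with the motif in capitals and on the strand where it reads, to show the sequence they have in common.
Chac1, chr2:119351038-119351066, minus strand: ctggcaggagTGATGCAACggcagggaag
Trib3, chr2:152344029-152344057, plus strand: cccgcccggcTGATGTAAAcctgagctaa
Nupr1, chr7:126625563-126625591, plus strand: aagccctgtcTGATGCAATctggcccttt
Asns, chr6:7693214-7693242, minus strand: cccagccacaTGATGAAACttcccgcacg
Slc7a11, chr3:50443661-50443689, minus strand: ctcatgtggcTGATGCAAAcctggagaat
Slc7a11, chr3:50443643-50443671, plus strand: ggctgcatgaTGATGCAAAttctccaggt
Gars, chr6:55037960-55037988, minus strand: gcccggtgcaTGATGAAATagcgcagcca
Of the 5 genes that changed, Chac1 has the element in this window, and Sesn2, Ddit4, Vldlr and Eprs do not. Of the other 10 genes that have it, 0 passed the threshold in any comparison, beside 2.09%, 3.03% and 10.2% of all tested genes. With 10 genes, 0 is near these shares. No match says only that these letters are not in this window.

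Of the 8 genes of amino acid synthesis, 0 passed the threshold in any comparison, beside 2.09%, 3.03% and 10.2% of all tested genes. Asns, which makes asparagine and has the element above in its promoter, had fitted values of 1056, 958 and 1505 in GFP-only, 895, 811 and 1275 with GFP–TTP, and 1079.5, 979 and 1538 with GFP–TTP-AA. Library 3 was highest in every condition, and the ranges overlap. Asns gave -0.24 ± 0.18 in GFP–TTP against GFP-only (95% interval -0.59 to 0.11), 0.03 ± 0.18 in GFP–TTP-AA against GFP-only (-0.32 to 0.39) and 0.27 ± 0.18 in GFP–TTP-AA against GFP–TTP (-0.08 to 0.62). Mthfd2, the mitochondrial enzyme of the one-carbon cycle, fell short of a call with the mutant, with a level of 944 in GFP-only, 852 with GFP–TTP and 644 with the mutant (-0.55 ± 0.19 against GFP-only, adjusted p = 0.0757). Of these 8 genes 6 were below 0 in each of the 3 comparisons, GFP–TTP against GFP-only included, though not the same 6 throughout. Over all tested genes 4934 of 9938, 4954 of 10103 and 4978 of 10103 were below 0. Among the 6 for the mutant against GFP-only were Phgdh, the first enzyme of serine synthesis (-0.23 ± 0.14, adjusted p = 0.491), Psph, which makes serine from phosphoserine (-0.34 ± 0.20, adjusted p = 0.459), and Pycr1, which makes proline (-0.52 ± 0.24, adjusted p = 0.29). Shmt2, which makes glycine in mitochondria, had levels of 2726, 2397 and 2506 in the 3 conditions (-0.12 ± 0.14 for the mutant against GFP-only, adjusted p = 0.805). Aldh18a1, which starts proline synthesis, gave -0.38 ± 0.15 against GFP–TTP (adjusted p = 0.0992). At an unadjusted p under 0.05 there were 1, 2 and 2 of 8 in the 3 comparisons, beside 11.3%, 14.2% and 22.1% of all tested genes.

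The transporters likewise passed in no comparison (0 of 6, beside 2.09%, 3.03% and 10.2% of all tested genes). An unadjusted p under 0.05 was reached by 0, 2 and 0 of 6 (11.3%, 14.2% and 22.1% of all tested genes). Those of GFP–TTP-AA against GFP-only were the subunits of the cystine importer, Slc7a11 (198 and 274, 0.47 ± 0.22, adjusted p = 0.298) and its heavy chain Slc3a2 (1795 and 2324, 0.37 ± 0.15, adjusted p = 0.166). Slc7a5, the leucine transporter that uses the same heavy chain, gave 0.26 ± 0.16 (adjusted p = 0.499). The carriers of arginine (Slc7a1), glutamine (Slc1a5) and small neutral amino acids (Slc38a2) lay between -0.05 and -0.25 in the same comparison, with adjusted p-values of 0.403 or more.

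Among the synthetases and Xpot, the exporter of tRNA, Eprs was the one gene past the threshold. This was 1 of 12 (8.33%) in GFP–TTP-AA against GFP–TTP, beside 10.2% of all tested genes. Eprs joins glutamate and proline to their tRNAs and also sits in a complex that represses inflammatory mRNAs in stimulated macrophages. Its fitted values were 3671, 3614 and 3947 in GFP-only, 4405, 4337 and 4736 with GFP–TTP, and 3335, 3283 and 3585 with GFP–TTP-AA. The fitted GFP–TTP values lie above all others, and those of the other 2 conditions adjoin without overlapping, which again reflects only the fitted terms. Eprs fell by 0.40 on the log2 scale from GFP–TTP to GFP–TTP-AA (SE 0.14, adjusted p = 0.048), while the difference from GFP-only was -0.14 ± 0.14. The call did not hold when chromosome medians were taken off (adjusted p = 0.0542) or when p-values were adjusted over the 3 comparisons together (adjusted p = 0.0786). The remaining 11 genes lay between -0.30 (Iars) and 0.22 (Mars) in this comparison, with Sars, the seryl-tRNA synthetase, at 0.05 ± 0.14.

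For context, 12 other genes of cytosolic synthetases and their scaffold were counted in the same way. In GFP–TTP-AA against GFP–TTP, 3 of 12 were lower and 0 were higher, beside 4.58% and 5.66% of all tested genes. These were Rars (-0.37 ± 0.12, adjusted p = 0.0268), Vars (-0.47 ± 0.12, adjusted p = 0.00337) and the scaffold gene Eef1e1 (-0.52 ± 0.17, adjusted p = 0.0248). Of the 12 genes 9 were below 0, with a median of -0.19, and of the 11 synthetases of the program 7 were below 0, with a median of -0.03. Against GFP-only 0 of 12 passed in either condition, with 2 for GFP–TTP and 2 for GFP–TTP-AA at an unadjusted p under 0.05 (11.3% and 14.2% of all tested genes).

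Footprint counts do not measure the phosphorylation of eIF2α through which the upstream arm acts. Of 13 genes for eIF2 kinases, eIF2 subunits and eIF2 control, 0 passed in any comparison, beside 2.09%, 3.03% and 10.2% of all tested genes. Likewise 0 of 13 reached an unadjusted p under 0.05, beside 11.3%, 14.2% and 22.1%. Of 16 further genes known to depend on ATF4, 12 could be tested. Cth, which makes cysteine from cystathionine, was lower with GFP–TTP than with GFP-only (46.6 and 26.3, -0.83 ± 0.25, adjusted p = 0.044) and higher with the mutant (52.8) than with GFP–TTP (1.01 ± 0.25, adjusted p = 0.00151). Jdp2, a bZIP repressor, was higher with the mutant (74.5) than with GFP-only (42.5, 0.81 ± 0.25, adjusted p = 0.0406) and GFP–TTP (37.2, 1.00 ± 0.25, adjusted p = 0.00163). Bcat1, which transaminates branched-chain amino acids, was higher with GFP–TTP (167) than with GFP-only (94.8, 0.82 ± 0.21, adjusted p = 0.0118) and lower with the mutant (109) than with GFP–TTP (-0.61 ± 0.21, adjusted p = 0.0456). Got1, the aspartate transaminase, was lower in the mutant than with GFP–TTP (-0.42 ± 0.14, adjusted p = 0.0267). So 2 of 12 passed in GFP–TTP against GFP-only (2.09% of all tested genes), 1 of 12 in GFP–TTP-AA against GFP-only (3.03%) and 4 of 12 in GFP–TTP-AA against GFP–TTP (10.2%). Calls against GFP–TTP went in either direction. This list, like the others counted for context, was chosen with earlier results of these data known, so the shares are no test of it.

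The conditions were not the only source of differences. In the fitted values each replicate number adds a shift that is common to the 3 conditions, and its range over the numbers was 1.52 on the log2 scale for Ddit4, 0.99 for Ddit3, 0.89 for Nupr1, 0.77 for Chac1 and 0.69 for Sesn2. For Ddit4, Ddit3, Nupr1 and Sesn2 this exceeds the largest difference between conditions, and for Chac1 (0.82) it does not. The median range was 0.30 over the 38 genes and 0.29 over all 10103 tested genes, and 4 of 38 (10.5%) against 4.55% of tested genes reached 0.75. By role the median was 0.62 for regulators, 0.59 for stress effectors, 0.60 for asparagine and proline synthesis and 0.17 for synthetases and tRNA export. Library 3 was lowest for Ddit4, Ddit3 and Sesn2 and highest for Chac1, Asns and Nupr1, so the shifts had no common direction. The authors' model gives no error for them here, and they are a description of these libraries.

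**Figure D4:**
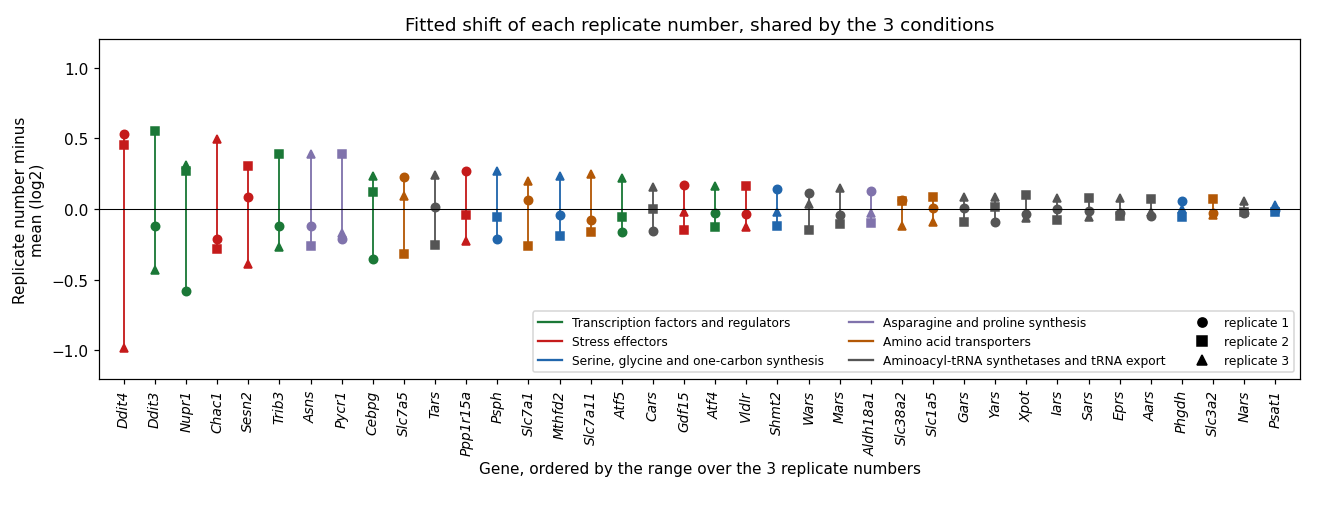
Shift of replicates 1, 2 and 3 from their mean (log2, fitted and common to the 3 conditions) for each of the 38 genes, ordered by range and coloured by role. Ddit4 has the widest range (1.52), with replicate 3 far below the others, while Psat1 has the narrowest (0.05).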

How the data were processed

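RiboSeq was analysed in 9 libraries, 3 per condition, grouped by the sample labels. The authors mapped reads to mm10 with TopHat, keeping up to 2 alignments per read, so that genes with close paralogs or pseudogenes may share footprints. The submitters' processing notes name Trim Galore, TopHat2 2.0.12, HTSeq and DESeq2 1.6.3. The authors' deposited signal is the value that their DESeq2 model, with terms for library date and condition, fitted per gene and library (size factor times fitted mean). It has 0 zeros, and after condition and replicate-number terms the largest log2 residual was 8.88e-15. The authors' deposited comparison tables hold log2 fold changes with SEs, which were used to recover size factors and errors, and mean counts, test statistics and p-values, which were not used.

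Size factors were between 0.414 and 2.12 and fitted values summed to 2570292 to 12804501 per library. Observed read totals were not used here, so depth enters through the SEs. Genes with a mean level of at least 10 were tested (10103, of which 9938 had an SE in GFP–TTP against GFP-only). Tests used scipy 1.17.1. The code was run on simulated data with noise drawn from the authors' SEs, which cannot show whether those SEs suit these data. Coding lengths, 3′UTRs and coordinates came from GENCODE vM21 (GRCm38). All 38 genes were described, by name or in counts, with library values for Atf4, Ddit3, Asns and each gene past the threshold, and genes of the other lists only where they passed. The genes and lists were chosen with earlier results of these data known. RNASeq, iCLIP and the mitochondrial synthetases are not reported here.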

Additional observations from a re-analysis of the deposited data

How the results depend on the processing

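Each comparison was recomputed without the filter, with a mean level of at least 50, with size factors recomputed as the median of ratios, with the chromosome median taken off, with p-values adjusted over the 3 comparisons together and, for values only, with a pseudocount of 10. With a mean level of at least 50, 1 gene of the program passed in GFP–TTP-AA against GFP-only and 3 in GFP–TTP-AA against GFP–TTP, because Vldlr and Chac1 were no longer tested. With the chromosome median taken off, 3 passed in the latter comparison (Sesn2, Chac1 and Vldlr). With adjustment over the 3 comparisons together, 1 gene passed in GFP–TTP against GFP-only (Ppp1r15a, adjusted p = 0.0275), 3 passed in GFP–TTP-AA against GFP-only (Ddit4 added, adjusted p = 0.0429), and Eprs was lost. Without the filter and with the other size factors the counts stayed at 0, 2 and 5, Vldlr included. A pseudocount of 10 lowered Vldlr to 0.62 and 0.51 and Chac1 to 0.47 against GFP–TTP. Of 141 tested values of 10 genes, 136 kept their side of the threshold, 3 lost the call and 2 gained it. With the pseudocount, which has no test, 26 of 30 values moved by less than their SE. None of the 171 values reversed, but most of these settings cannot change the sign of a fold change. Only the recomputed size factors and the chromosome median could do so. No paired analysis was possible because the deposited values are already fitted with a term that follows the replicate number, and for the same reason leaving out each replicate was not run. Low footprint counts limit Vldlr, Chac1, Trib3, Atf5, Pycr1 and Nupr1, whose SEs are near the largest in the tables, 0.25.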
